A study of Mus musculus with 4 samples.

Results

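The genes described here are 10 core genes of microRNA processing and silencing: Drosha, Dgcr8, Dicer1, Ago1, Ago2, Ago3, Ago4, Tnrc6a, Tnrc6b and Tnrc6c. They were taken by gene symbol from a table of 32681 genes, and all 10 were present and passed the filter on low counts. MicroRNAs are short RNAs that pair with messenger RNAs and lower their translation and stability. Their primary transcripts are cut in the nucleus by the Microprocessor, which joins the nuclease Drosha to the RNA-binding protein Dgcr8, and the resulting hairpin is cut again in the cytoplasm by Dicer. An Argonaute protein then holds the mature strand, and TNRC6 proteins bound to Argonaute recruit the deadenylases that shorten the target's poly(A) tail. In the developing cortex this pathway is known to be needed for the survival and maturation of neurons.

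The study set DcpS shRNA against control shRNA, with 2 libraries each, to find transcripts that depend on DcpS, a hydrolase that clears the capped oligonucleotides that 3′-to-5′ decay leaves behind. All 4 libraries came from primary neurons of the neocortex of wild-type CD-1 mice at embryonic day 13, grown in Neurobasal medium with B27 and transfected with 1 of the short hairpin RNAs. Both DcpS shRNA libraries carry the same construct name, so loss of DcpS cannot be told apart from other effects of that hairpin. The sources used here do not give the hairpin's sequence, the share of cells transfected or the days in culture. Nor do they say whether the cultures were separate preparations, so the spread behind each p-value may be technical. Libraries are numbered 1 and 2 in each group as in their titles.

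The knockdown was seen in both DcpS shRNA libraries. Dcps stood at normalised read counts (reads divided by 1 size factor per library) of 499.8 and 506.6 in control 1 and 2 and at 114.5 and 119.6 in DcpS shRNA 1 and 2, which leaves 23.3% of the control mean. The libraries held 17754768 to 21793685 reads, and each of the 10 genes had between 429 and 8576 reads in a library. Projection neuron markers were well expressed, with a summed level of 4820 to 4917 CPM (reads scaled to a common library total) in the controls and 4541 to 4655 CPM with DcpS shRNA over 10 genes, none at 0. These ranges were apart, with 1 of the 10 called higher and 1 called lower. The summed fibroblast markers (6 genes, none at 0) were at 559.9 to 616 CPM in the controls and 329.5 to 340.5 CPM with DcpS shRNA, and all 6 were called lower. The ranges were also apart for endothelial and mural markers (35.5 to 38.6 against 20.3 to 22.3 CPM) and astrocyte markers (190.2 to 199.6 against 158.8 to 168.3 CPM), with 3 of 6 called lower in each list and none at 0. They were apart the other way for radial glia and progenitors (999.1 to 1029 against 1032 to 1145 CPM, 1 of 6 called, higher). Interneuron markers (14.7 to 15.1 against 13.4 CPM in both DcpS shRNA libraries) and microglia markers (6.95 to 7.04 against 5.64 to 6.87 CPM) were lower with no gene called. The part of these cells in the results below was not tested, and in bulk RNA fewer cells of a type cannot be told apart from less RNA per cell.

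Among the 10 genes, Dgcr8 carries microRNA hairpins within its own messenger RNA, which the Microprocessor is known to cut, so the gene is both a part and a substrate of the machinery. Annotated microRNA genes also overlap exons of Tnrc6b (Mir5113, 82 bases) and Drosha (Gm47288, 72 bases) on the same strand. The 4 mature sequences of the Dgcr8 hairpins, from RefSeq on GRCm38.p6, lie on the minus strand of chromosome 16 within Dgcr8 exons. The seed, bases 2 to 8, is in capitals, and it differs in all 4. The pair of miR-1306 strands lies in the coding part of the messenger RNA and the pair of miR-3618 strands in its 5′ UTR.
miR-1306-5p, chr16:18284288-18284310: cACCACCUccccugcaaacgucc
miR-1306-3p, chr16:18284248-18284268: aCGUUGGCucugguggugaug
miR-3618-5p, chr16:18284602-18284623: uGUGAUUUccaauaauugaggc
miR-3618-3p, chr16:18284562-18284583: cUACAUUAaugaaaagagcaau

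DcpS shRNA went with lower RNA of Ago4, Tnrc6c and Dicer1, and with no call among the other 7 genes. Ago4 was at 77.6% of its control mean, Tnrc6c at 83.9% and Dicer1 at 85.8%. Thus 3 of 10 genes fell and none rose (limma, Benjamini-Hochberg adjusted p under 0.05 over 18110 genes), beside 5.79% of all tested genes called, 3.65% lower and 2.14% higher. Long and well expressed genes are a nearer reference. Of the tested genes, 2844 had at least 6.18 kb of exon and a level within that of the 10 genes. Among these 2844, which include 9 of the 10 genes, 296 were called, 205 lower and 91 higher. None of the 10 was called higher by edgeR's quasi-likelihood test or DESeq2 either, and the 4 of them at an unadjusted p under 0.05 were all lower, beside 18.7% of all tested genes at such a p and 9.92% on the lower side. The median log2 change of the 10 genes was −0.11, beside 0.00 for all tested genes. With DESeq2 0 of the 10 were called (4 at an unadjusted p under 0.05), where it called 2.47% of all tested genes, and with edgeR 4 were, against 5.95%. With 1 library left out the count was 5 without DcpS shRNA 1 and 2 without each of the other libraries.

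**Figure D1:**
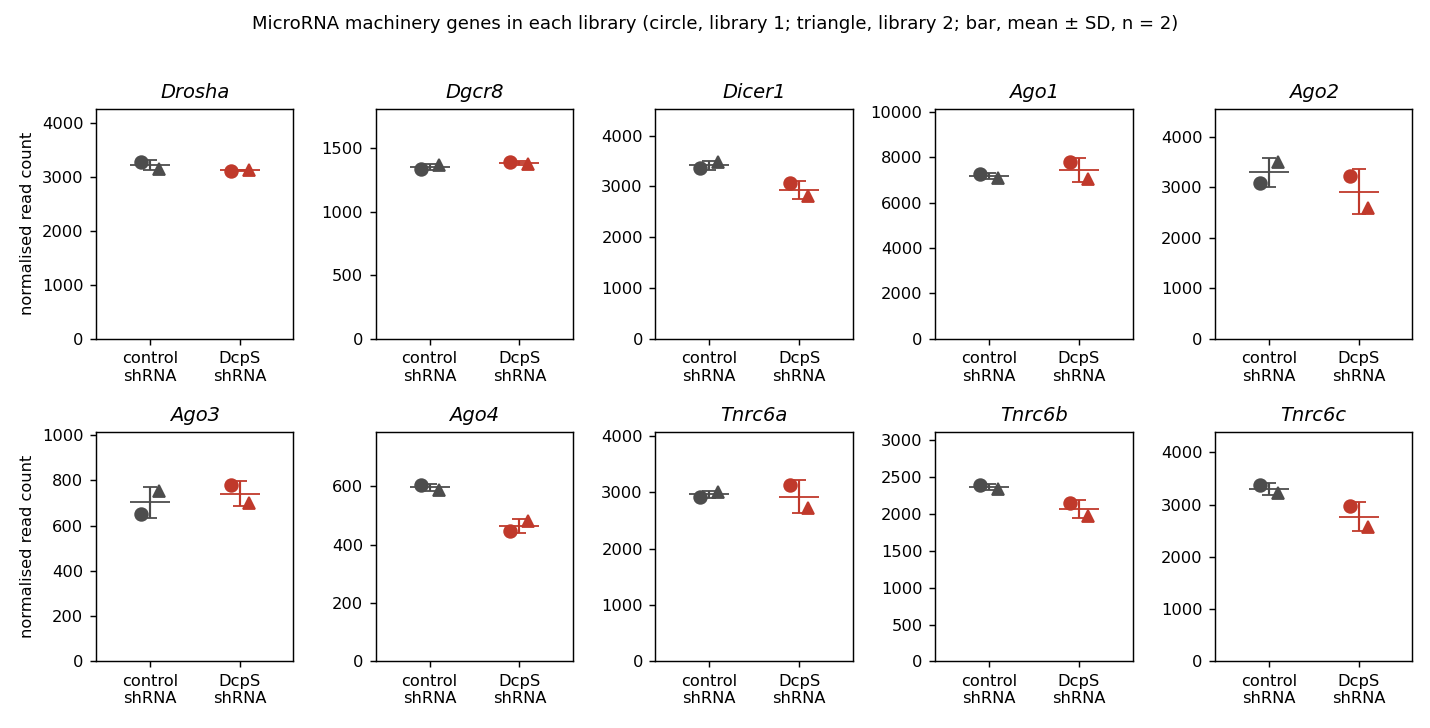
Normalised read count of each gene in the 4 libraries (circles, library 1; triangles, library 2), with the mean and SD (n = 2) as a bar, each axis from 0. The DcpS shRNA libraries lie below both controls for Dicer1, Ago4, Tnrc6b and Tnrc6c, by a small step for Drosha, and around the controls for Ago1, Ago2, Ago3 and Tnrc6a.

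Neither gene of the Microprocessor was called. Drosha, the nuclease that cuts primary transcripts (chr15:12824815-12935291, plus strand, GRCm38, GENCODE M21), was at 3277 and 3150 in control 1 and 2 and at 3110 and 3127 with DcpS shRNA 1 and 2. Both knockdown libraries were below both controls, but by less than the gap between the controls (log2 fold change −0.04, SE 0.05, limma adjusted p 0.726). Dgcr8, the RNA-binding partner of Drosha (chr16:18253948-18289246, minus strand), was at 1335 and 1369 in the controls and at 1394 and 1376 with DcpS shRNA (0.03, SE 0.06, limma adjusted p 0.815). The groups again did not overlap, and the 4 values spanned only 1335 to 1394. The control mean of Dgcr8 was 1352 ± 24.1 and the DcpS shRNA mean 1385 ± 12.8 (SD, n = 2). The end of Dgcr8 lies over the end of Trmt2a, a tRNA methyltransferase gene on the opposite strand, with 825 shared exonic bases, 10.7% of Dgcr8's exonic length. Use of strand in counting is not given in the sources used here, so reads from the shared stretch cannot be assigned, and Trmt2a itself was at 1121 and 1058 in the controls and at 1176 and 1130 with DcpS shRNA.

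Dicer1 fell. It encodes the cytoplasmic nuclease that releases the mature duplex (chr12:104687742-104751952, minus strand). Its normalised read count was 3357 and 3485 in control 1 and 2 and 3062 and 2810 with DcpS shRNA 1 and 2, so both knockdown libraries were below both controls and DcpS shRNA 2 was the lower of the pair. The mean went from 3421 ± 90.4 to 2936 ± 177.7 (SD, n = 2), a log2 fold change of −0.22 (SE 0.06, limma adjusted p 0.0277). The call of Dicer1 ended with DESeq2 (adjusted p 0.0776). It also ended without control 1 or control 2, where the log2 fold changes were −0.25 and −0.19. The first of these is larger in size than with all 4 libraries.

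The 4 Argonaute genes did not move together. Ago4 (chr4:126489541-126533472, minus strand), an Argonaute that binds microRNAs and is not known as a slicing enzyme in mammals, had the largest fall of the 10 genes. Its values were 605.3 and 588.7 in control 1 and 2 and 447.0 and 479.4 with DcpS shRNA 1 and 2. The groups were well apart: the gap between them was larger than the gap within either. The mean went from 597 ± 11.7 to 463 ± 22.9 (SD, n = 2), with a log2 fold change of −0.37 (SE 0.08, limma adjusted p 0.00991). The Ago4 call held under 14 of 15 alternatives and ended with DESeq2 (adjusted p 0.0804).

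Ago1 and Ago3 lie beside Ago4 on chromosome 4, all on the minus strand, and neither was called. Ago1 (chr4:126435012-126468583), a widely expressed Argonaute, was at 7279 and 7074 in the controls and at 7792 and 7039 with DcpS shRNA 1 and 2. DcpS shRNA 1 was above both controls and DcpS shRNA 2 below both, so the groups overlap (log2 fold change 0.05, SE 0.06, adjusted p 0.732). Ago3 (chr4:126331704-126429556), the low member of the family, was at 651.8 and 751.7 in the controls and at 780.5 and 700.7 with DcpS shRNA. The overlap was wide here too (0.08, SE 0.08, adjusted p 0.671). The sign of Ago1 turned without DcpS shRNA 1 (−0.03) and that of Ago3 without control 1 (−0.02).

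Ago2, the Argonaute known for slicing fully paired targets, gave the clearest disagreement between the knockdown libraries. It lies on chr15:73095844-73184935, minus strand. Its values were 3090 and 3499 in control 1 and 2, 3224 with DcpS shRNA 1 and 2589 with DcpS shRNA 2. DcpS shRNA 1 was inside the range of the controls, and only DcpS shRNA 2 was below it. The ratio of DcpS shRNA 2 to DcpS shRNA 1 was 0.803 (95% interval 0.762 to 0.846, exact binomial, counting error only), and among 7253 tested genes at the level of the 10 genes 98.8% had a smaller gap between these libraries. The control libraries differed as well, with a ratio of control 2 to control 1 of 1.13 (1.08 to 1.19). Ago2 was not called (log2 fold change −0.19, SE 0.11, limma adjusted p 0.432). With 1 library left out its log2 fold change was −0.34 without DcpS shRNA 1 and −0.03 without DcpS shRNA 2. It was −0.28 without control 1 and −0.10 without control 2.

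TNRC6 genes encode the glycine- and tryptophan-rich scaffolds (GW182 proteins) that link Argonaute to deadenylases. Tnrc6c (chr11:117654289-117763439, plus strand) was at 3380 and 3221 in control 1 and 2 and at 2970 and 2568 with DcpS shRNA 1 and 2. Both knockdown libraries lay below both controls, and the step between the 2 knockdown libraries was larger than that from DcpS shRNA 1 to the nearer control. The mean fell from 3300 ± 112.1 to 2769 ± 284.3 (SD, n = 2), a log2 fold change of −0.26 (SE 0.06, limma adjusted p 0.0274). The Tnrc6c call ended with DESeq2 (adjusted p 0.0603). It also ended without control 1 or DcpS shRNA 2, where the log2 fold changes were −0.22 and −0.15.

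Tnrc6b (chr15:80711313-80941085, plus strand) had a like pattern and stood at the threshold. It was at 2399 and 2337 in the controls and at 2153 and 1980 with DcpS shRNA 1 and 2, without overlap (log2 fold change −0.20, SE 0.06, limma adjusted p 0.0530). It was called by edgeR (adjusted p 0.0438) and, by limma, with the low-count filter left out (0.0407) or made stricter (0.0489). It was not called by DESeq2 (adjusted p 0.210). Nor was it called by limma with the GC and length trend removed (0.107), TMM scaling (0.0625) or library-total scaling (0.0562). With 1 library left out its log2 fold change ran from −0.26 (without DcpS shRNA 1) to −0.14 (without DcpS shRNA 2). Tnrc6a (chr7:123123885-123195296, plus strand) was at 2921 and 3006 in the controls, 3132 with DcpS shRNA 1 and 2710 with DcpS shRNA 2. The knockdown libraries lay on opposite sides of the controls (−0.02, SE 0.06, adjusted p 0.893).

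By normalised read count the 2 knockdown libraries lay on the same side of the control mean for 7 of the 10 genes, near the 69.4% of all tested genes in which they did. They were apart from both controls on the same side for 6. Of these 6, 5 were lower (Drosha, Dicer1, Ago4, Tnrc6b and Tnrc6c) and Dgcr8 was higher. Over all tested genes the groups were apart in 24% on the lower side and 24.4% on the higher side. Among the 2844 long genes at the level of the 10 genes, they were apart in 861 on the lower side and 672 on the higher side. Against the control mean on the log2 scale, DcpS shRNA 1 and 2 were at −0.42 and −0.32 for Ago4, at −0.16 and −0.28 for Dicer1, at −0.15 and −0.36 for Tnrc6c and at −0.14 and −0.26 for Tnrc6b. Ago4 was the only one of these 4 in which DcpS shRNA 1 was the lower library. The ratio of DcpS shRNA 2 to DcpS shRNA 1 was 1.07 for Ago4 (95% interval 0.940 to 1.22, exact binomial, counting error only). That interval holds 1, but it is wide, from 492 and 429 reads. With 1772 to 3370 reads, the intervals of the other 3 left out 1: Dicer1 (0.918, 0.871 to 0.967), Tnrc6b (0.920, 0.864 to 0.978) and Tnrc6c (0.865, 0.819 to 0.912). A smaller gap between these libraries was found in 67.7% of tested genes at the level of the 10 genes for Ago4. For Tnrc6b, Dicer1 and Tnrc6c the shares were 76.2%, 77.1% and 94.3%. Of the remaining genes the interval also left out 1, beside Ago2, for Tnrc6a (0.865, 0.821 to 0.912), Ago1 (0.903, 0.874 to 0.933) and Ago3 (0.898, 0.809 to 0.996). The intervals of Drosha and Dgcr8 held 1. Spread beyond counting error was general between these libraries (chi-square per degree of freedom 3.98 over 18110 tested genes). The share of all genes with an interval that leaves out 1 was not counted, so these intervals are not particular to the 10 genes.

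**Figure D2:**
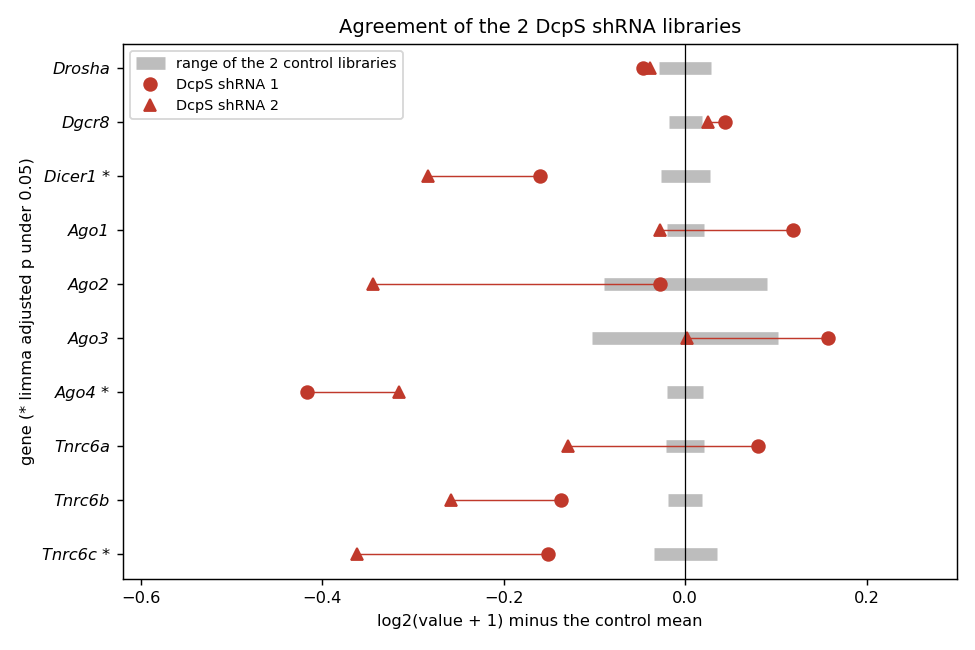
Each DcpS shRNA library minus the control mean on the log2(value + 1) scale for the 10 genes, with the range of the 2 control libraries as a grey bar and called genes starred. Both knockdown libraries are left of the control range for Dicer1, Ago4, Tnrc6b, Tnrc6c and, narrowly, Drosha, and for Ago1, Ago2 and Tnrc6a only DcpS shRNA 2 is.

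DcpS shRNA 2 was below DcpS shRNA 1 in 8 of the 10 genes, against 49.5% of all tested genes. The median over the 10 genes was −0.04 in DcpS shRNA 1 and −0.19 in DcpS shRNA 2. Transcript length moved with this gap. The tested genes were put in 4 equal classes by exonic length (the union of annotated exons). The longest class, of at least 6.18 kb, had a median of 0.00 in DcpS shRNA 1 and −0.05 in DcpS shRNA 2, and in the shortest class these medians were 0.00 and 0.03. Of the 10 genes, 9 belong to the longest class, and their exonic lengths run from 5.93 kb for Drosha to 23.7 kb for Tnrc6b. Among 2844 genes of the longest class at the level of the 10 genes, DcpS shRNA 2 was below DcpS shRNA 1 in 71.0%. With a linear trend on GC content and length removed from each library, Ago4 (−0.33), Tnrc6c (−0.23) and Dicer1 (−0.17) were still called, and the median of the 10 genes was −0.08. That correction turned the sign of Tnrc6a (0.02) and moved the calls over all genes from 387 higher and 661 lower to 742 higher and 650 lower.

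**Figure D3:**
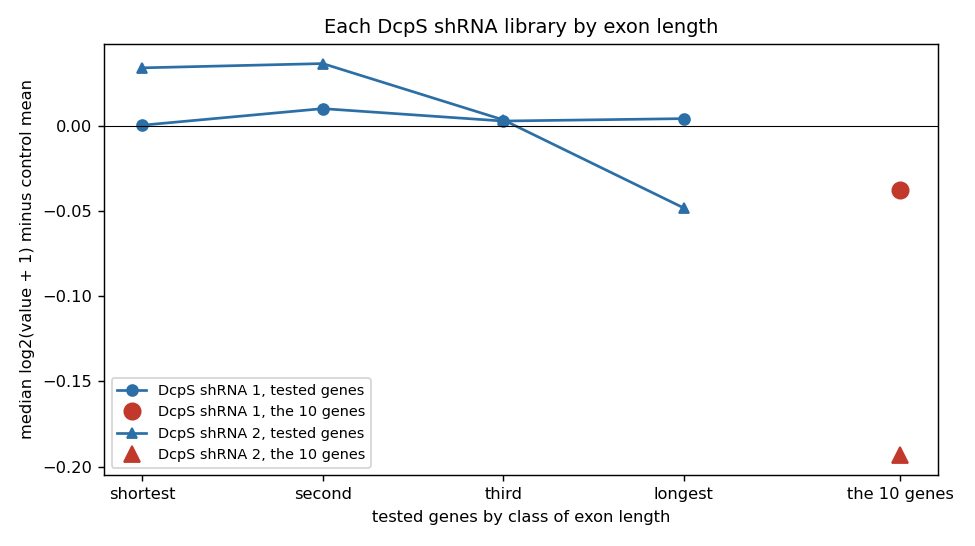
Median of each DcpS shRNA library minus the control mean, on the log2(value + 1) scale, for tested genes by class of exonic length and for the 10 genes. DcpS shRNA 2 runs from 0.03 in the shortest class to −0.05 in the longest while DcpS shRNA 1 stays near 0.00, and both libraries are lower for the 10 genes, at −0.04 and −0.19.

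Levels per kilobase of exon differed more between the genes than between the groups. In the controls Ago1 had the highest normalised read count per kb (884 ± 17.9, SD, n = 2), followed by Drosha (541 ± 15.1) and Tnrc6c (257 ± 8.73). Ago2 (235 ± 20.6) and Tnrc6a (233 ± 4.73) overlapped in the controls, ahead of Dicer1 (204 ± 5.40) and Dgcr8 (176 ± 3.13). Tnrc6b, Ago4 and Ago3 were lowest, at 100.02 ± 1.85, 85.9 ± 1.69 and 42.3 ± 4.26 per kb. Ago1 thus held 72.1% and 69.7% of the summed per-kb level of the 4 Argonautes in control 1 and 2 and 73.8% and 74.6% with DcpS shRNA 1 and 2, while the share of Ago4 was 7.01% and 6.78% in the controls but 4.95% and 5.94% with DcpS shRNA. Long annotated 3′ UTRs that are not used in these cells would make a per-kb level too low. Shared sequence was small: at most 1.53% of an Argonaute gene's 50-base stretches (Ago1, shared with Ago3 and Ago2) occurred in another Argonaute, and none of a TNRC6 gene's in another TNRC6 gene.

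**Figure D4:**
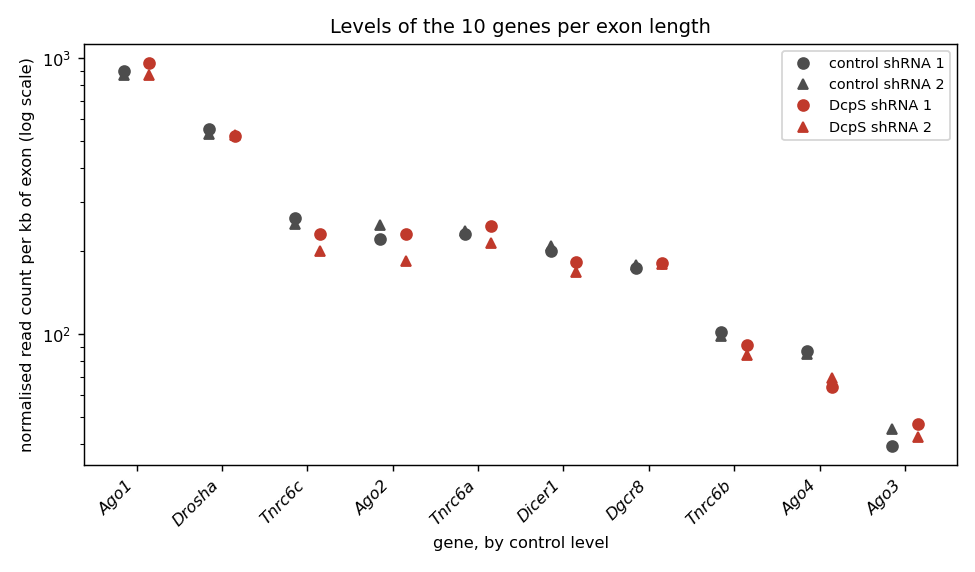
Normalised read count per kb of exon (log axis) for the 10 genes in each library, ordered by the control mean. Ago1 is highest near 884 and Ago3 lowest near 42.3, and the values of Tnrc6c, Ago2, Tnrc6a, Dicer1 and Dgcr8 overlap in part over the 4 libraries.

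Earlier work on these data found a pair of 7-base words, ACGTGCA and CACGTGC, more often in the 3′ UTRs of genes that fell, and both are in the 3′ UTR of Dcps, where they overlap as 1 stretch of 8 bases. Annotated 3′ UTRs (GENCODE M21, GRCm38) were searched for both words on the transcript strand only. A word was present once in 4 of the 10 genes: Dicer1, Ago2, Ago4 and Tnrc6b. It was present in 9.48% of 13724 scanned genes among those tested and in 18.6% of those with a 3′ UTR of at least 2500 bases, as 8 of the 10 genes have. Dicer1 and Ago4 were called lower, Tnrc6b stood at the threshold, Ago2 was lower in DcpS shRNA 2 alone, and the called gene Tnrc6c has neither word. Of the 1301 tested genes with a word 224 were called lower (17.2%), beside 646 of the 13724 scanned genes (4.71%). The words were chosen for being more frequent in genes that fell in these data, so this difference follows from that choice. It was not matched for 3′ UTR length. A match in letters is not a site of action, and the part of these words in the changes was not tested. The stretches are shown 5′ to 3′ on the transcript strand with the word in capitals.
Dcps, chr9:35124747-35124772, minus strand: tatcacctgCACGTGCAtttcacagc
Ago4, chr4:126492974-126492998, minus strand: tttacctcaACGTGCAaaggctgat
Ago2, chr15:73101462-73101486, minus strand: gcatggggaACGTGCAccctccagg
Dicer1, chr12:104690011-104690035, minus strand: cccaaggatCACGTGCtgttgctgt
Tnrc6b, chr15:80931245-80931269, plus strand: ggggatcctCACGTGCtaaatagat

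The genes around the core gave 1 call. A list of 81 partners and effectors of the pathway held 79 tested genes, of which 1 fell and none rose (limma, adjusted p under 0.05), beside 5.79% called among all tested genes. At an unadjusted p under 0.05 there were 17 of the 79, of which 11 were higher, against 18.7% of all tested genes and 8.75% on the higher side, and edgeR called 1 and DESeq2 0. Their median log2 change was 0.01. The call was Xrn1, the exonuclease that degrades decapped RNA from its 5′ end. It was at 1525 and 1544 in control 1 and 2 and at 1365 and 1239 with DcpS shRNA 1 and 2, without overlap (−0.24, SE 0.06, adjusted p 0.0291). That call ended with DESeq2 (adjusted p 0.160) and with the GC and length trend removed (limma, 0.0718). It also ended without control 1, control 2 or DcpS shRNA 2, where the log2 fold changes were −0.25, −0.23 and −0.17.

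By role, none of 17 nuclear cofactors of primary transcript cleavage, 2 export genes, 11 Dicer partners and loading factors, 26 effectors of silencing or 13 Argonaute partners was called, and 1 of 10 genes of tailing, decay and let-7 control was. The next smallest p-values belonged to Pan3, a subunit of the PAN2-PAN3 deadenylase that TNRC6 proteins recruit, at 1080 and 1091 in the controls and at 1275 and 1216 with DcpS shRNA (0.20, adjusted p 0.0662). Cnot7, a catalytic deadenylase of the CCR4-NOT complex, was at 3412 and 3446 in the controls and at 3025 and 3129 with DcpS shRNA (−0.16, adjusted p 0.0953). Log2 fold changes were 0.16 for the cap-binding subunit Ncbp2, 0.14 for the chaperone Hsp90aa1 and 0.18 for the deadenylase Cnot6l, with adjusted p-values from 0.120 to 0.133. Lin28a, the embryonic inhibitor of let-7 processing, had no read in 3 libraries and 1 read's worth (0.9) in DcpS shRNA 1, and did not pass the filter. With the GC and length trend removed, 8 of the 79 genes were called, all higher, where 7.87% of all 17690 genes with a GC content and length were called, 4.19% on the higher side.

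**Figure D5:**
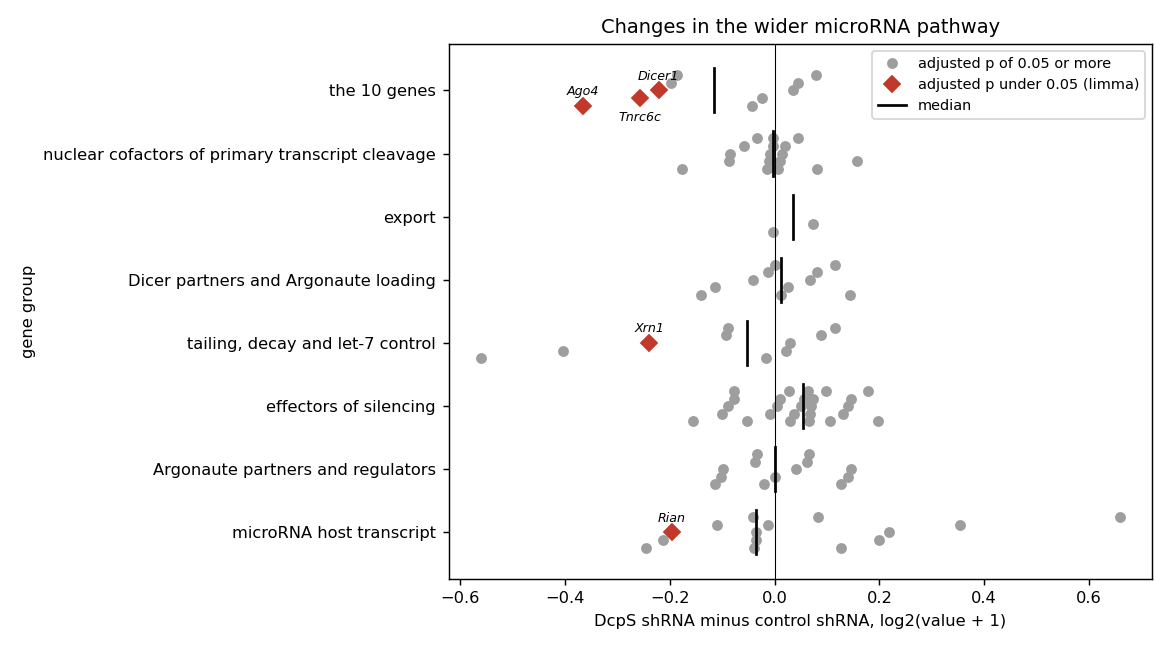
Log2 fold change (DcpS shRNA minus control shRNA) of the 10 genes, of 79 pathway genes by role and of 15 microRNA host transcripts, with called genes as labelled red diamonds and the median of each group as a black bar. The 10 genes have a median of −0.11 with 3 called, and the larger groups are centred near 0.00 with Xrn1 and Rian called.

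Transcripts that carry microRNA hairpins gave 1 call, near the 5.79% of all tested genes called. Of 19 listed host transcripts 17 were looked at and 15 passed the filter and were tested, and Rian fell (none rose by limma, edgeR or DESeq2, with 2 higher at an unadjusted p under 0.05 by limma). Rian is a long non-coding RNA of the imprinted Dlk1-Dio3 region. It was at 4172 and 4492 in the controls and at 3711 and 3845 with DcpS shRNA 1 and 2 (−0.20, SE 0.05, limma adjusted p 0.0435). The call ended with DESeq2 (adjusted p 0.107) and with the GC and length trend removed (limma, 0.145). It also ended without control 1 or control 2, where the log2 fold changes were −0.25 and −0.14. Mature microRNAs annotated within introns of Rian, on its strand (RefSeq, GRCm38.p6), are shown because it was the called host, with the seed in capitals. They have 6 different seeds, and their own levels were not measured by this value.
miR-341-5p, chr12:109611521-109611541: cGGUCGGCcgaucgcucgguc
miR-341-3p, chr12:109611556-109611576: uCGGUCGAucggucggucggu
miR-1188-5p, chr12:109611841-109611861: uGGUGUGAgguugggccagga
miR-1188-3p, chr12:109611877-109611901: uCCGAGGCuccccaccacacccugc
miR-370-5p, chr12:109618270-109618289: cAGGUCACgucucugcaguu
miR-370-3p, chr12:109618305-109618326: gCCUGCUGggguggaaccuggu

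The table also has 292 rows for single microRNA genes, of which 16 passed the filter and 0 were called by limma, edgeR or DESeq2, with 0 at an unadjusted p under 0.05 by any of them. Such rows can count reads of the host transcript.

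The profile of Ago4, the gene of the 10 with the smallest p, was compared with every tested gene by the Euclidean distance of gene-centred log2 values over the 4 libraries. The nearest were Pdk2, a pyruvate dehydrogenase kinase (distance 0.02), Ift122, a component of intraflagellar transport (0.03), and Tes, a focal adhesion protein (0.03). Their DcpS shRNA means were 78.1%, 77.1% and 76.6% of the control means, and like Ago4 each was lower in DcpS shRNA 1 than in DcpS shRNA 2. Both likenesses follow from choosing these genes by distance over the same 4 values.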

How the data were processed

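RNA sequencing of 4 libraries from primary neurons was analysed from 1 deposited table with a column per library. HISAT2 2.2.0, SAMtools 1.3.1, Picard, featureCounts, DESeq2 and the build GRCm38 are named, without options, per the submitters' processing notes. Not given in the sources used here are the annotation, strand use and RNA selection. The values are a signal made by the authors: reads per gene divided by 1 factor per library. Dividing by the smallest positive value of each column gave whole reads for 100% of values (tolerance 0.001), and the factors (1.05, 0.975, 1.10 and 0.895) equalled median-of-ratios size factors. Such scaling would not show a shift of all transcripts together.

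The main test was limma 3.58.1 (R 4.3.3) on log2(value + 1), group as the only term, empirical Bayes with trend and robust options, two-sided, Benjamini-Hochberg adjusted over 18110 genes that passed filterByExpr (minimum count 10). Fold changes are on that scale, which understates changes of low genes. Residual spread is pooled across genes, since an exact permutation test of 2 against 2 cannot go below p = 0.333. The script was tested on simulated data. edgeR 4.0.16 and DESeq2 1.42.0 were run on the recovered reads, with other pseudocounts (0.5 and 10), filters, scalings, a replicate block, a GC and length correction and each library left out as further alternatives. A fit with a library left out has 1 library in a group. Its p-values and calls then hold no spread of that group. Libraries of a group differed by more than sampling noise (chi-square per degree of freedom 2.14 for the controls and 3.98 for DcpS shRNA). Of the table's symbols, 96.7% matched 1 GENCODE M21 gene. Named genes were the 10 members, the called genes of the pathway and host lists, and the pathway genes with the 6 smallest p at 5 CPM or more; the genes listed and the rules were chosen with earlier results of these data known. A count of 0 allows up to 3 reads, or 0.138 to 0.169 CPM.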

Additional observations from a re-analysis of the deposited data

How the results depend on the processing

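With 2 libraries a group, several calls changed when a library was left out. Leaving a library out also changes the standard error, so a call can end while the change grows. That was so for Dicer1, Xrn1 and Rian without control 1. Over all genes 1048 were called, 36.9% of them higher. The count was 448 with DESeq2, 1392 with the GC and length trend removed (53.3% higher), and 747 to 1745 with a library left out, the highest without DcpS shRNA 1. Of the 10 genes 3 were called, 0 with DESeq2 (4 at an unadjusted p under 0.05) and 2 to 5 with a library left out, with 5 without DcpS shRNA 1. Pathway calls, 1 in the reported fit, were 2 without a low-count filter, 0 with DESeq2, 8 after the GC and length correction and 0 to 6 with a library left out. Host transcript calls, also 1, were 0 with DESeq2, 0 after that correction and 0 to 3 with a library left out. With a library left out, log2 fold changes ran from −0.028 (without DcpS shRNA 1) to 0.12 for Ago1, from −0.024 (without control 1) to 0.18 for Ago3, and from −0.13 to 0.080 (without DcpS shRNA 2) for Tnrc6a, turning the sign in each. Tnrc6a also turned with the GC and length correction (0.021, and 0.021 with the replicate block added). The cause was not tested. Of the 10 genes, Ago2, Ago4, Dgcr8, Dicer1, Drosha, Tnrc6b and Tnrc6c kept their sign in all 15 alternatives.

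The set numbers give libraries of the 2 groups the same number without stating a pairing, and same-numbered libraries did not deviate together (r = 0.04 across 18110 genes, which are not independent replicates). With the replicate block 1626 genes were called, and 2083 with the block and the GC and length trend removed. The block gave 4 calls among the 10 genes (Tnrc6b added), 2 pathway calls and 2 host calls. With the correction added the 10 genes again gave 4 calls, but Ago2 was called (adjusted p 0.0491) and Tnrc6b was not (0.0602), with 11 pathway calls, 10 of them higher, and 1 host call, which was higher and so not Rian. Pseudocount, TMM or library-total scaling and the stricter filter left each count within 1.5 times its reported value.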
